A study of Mus musculus with 6 samples.

Results

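DNA repair genes encode the machines that find a damaged base, a mismatch, a crosslink or a break in DNA and restore the sequence. The 51 genes described here were taken as a list of textbook repair genes and sorted by pathway. The rule names the genes and uses no measured value. The list was, however, chosen with earlier results of these data known, so it is not independent of them. They comprised 11 genes of homologous recombination, 8 of the Fanconi pathway, 4 of mismatch repair, 5 of end joining, 10 of base excision repair, 7 of nucleotide excision repair and 6 of break sensing and signalling. All 51 were among the 17854 genes of the deposited expression table, and all 51 passed the filter on low counts.

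Levels were compared between 2 groups of Tomato+ cells, with 3 libraries in each, and the study's methods give 3 mice a group. The sources do not tie each library to 1 mouse, so the p-values measure the spread between libraries, which may be technical in part. Tomato marks every descendant of a cell that once expressed Prrx1, a gene of limb mesenchyme, because Cre driven by Prrx1 switches on tdTomato permanently. The first group, InjectPrrx, consisted of Tomato+ cells sorted from the repaired knee cartilage of male C57BL/6 mice without the reporter. Their osteoarthritis had been induced by anterior cruciate ligament transection (ACLT). Those mice had received an injection into the joint of mesenchymal stromal cells (MSCs) of the Prrx1 lineage from the inguinal white adipose tissue of Prrx1-Cre; R26tdTomato donors. The study describes the sorted cells as derived from the injected MSCs. The name MSC-derived follows that account, which was not tested here. The second group, NativePrrx, consisted of endogenous articular Tomato+ cells from Prrx1-Cre; R26tdTomato mice matched for age and sex. Cells were sorted on Tomato alone after collagenase digestion, so any Tomato+ cell of the lineage, or any cell carrying the signal, could enter. The groups differed in donor tissue, in surgery and in injection together, and these cannot be told apart.

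The libraries held between 22060628 and 24881796 expected counts. In this depth 3 counts, the lowest level read as present, were worth 0.117 to 0.133 CPM (counts scaled to an equal library total), a floor that covers counting error only. The labels call both groups chondrocytes. All 10 chondrocyte markers were found in every library, but they were all lower in MSC-derived cells, where their FPKM (a level per transcript length and library size) summed to 351.9 to 363.8 against 12540 to 13180 in endogenous cells. All 8 leukocyte markers were higher in MSC-derived cells (summed FPKM 2777 to 2805 against 110.1 to 163.3). So were all 10 macrophage markers (11260 to 11530 against 29.73 to 43.38), all 9 neutrophil and all 9 erythroid markers. All 5 osteoblast markers were lower (186.8 to 201 against 15020 to 28170), as were all 8 mesenchymal markers (1709 to 1722 against 20230 to 22710). Other panels were less uniform. Of 8 B cell markers 6 were called higher, of 7 T and NK cell markers 6 and of 5 endothelial markers 3, with 0 lower in each. Of 6 blood progenitor markers 2 were higher and 2 lower. Of all genes tested, 31.3% were higher and 30.3% lower. In bulk RNA, fewer cells of a type and less RNA per cell cannot be told apart. The part of these other cell types in the results on repair genes was not tested. Endogenous replicate 1 stood apart from the other endogenous libraries, with 3459 genes at 0 counts against 1338 and 1395.

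Repair pathways differ in the damage that they handle and in when they work. Base and nucleotide excision repair and end joining operate throughout the cell cycle, while homologous recombination copies the sister chromatid and is therefore restricted to cells that have replicated their DNA. The recombination, Fanconi and mismatch genes include many that dividing cells transcribe around S phase. Cartilage cells divide rarely and live long, and damage to their DNA has been studied in osteoarthritis.

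Of the 51 repair genes, 18 were higher in MSC-derived cells (35.3%, against 31.3% of the 14289 genes tested), 5 were lower (9.8%, against 30.3%) and 28 were not called, by edgeR's quasi-likelihood test with a Benjamini-Hochberg adjusted p of 0.05 or less. The share of higher genes was thus near that of all genes, and the share of lower genes was smaller. The log2 fold change of MSC-derived over endogenous cells was positive for 38 of the 51 genes and had a median of 0.65, beside 0.05 for all genes tested. All 3 MSC-derived libraries lay above all 3 endogenous ones for 28 genes (54.9%, against 38.2% of all genes), and below them for 6 (11.8%, against 34.1%).

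Endogenous replicate 1 weighed on these counts. It was the lowest of the 6 libraries for 26 repair genes (51%, against 32.5% of all genes tested), the highest for 9 (against 28.6% of all genes), and lay more than 2-fold outside the other endogenous libraries for 20 (39.2%, against 17.7%). Brca1, Fanca, Fancl, Fancd2, Exo1 and Mutyh had 0 counts in it. Without that library 31 repair genes were higher (60.8%, against 37.8% of the 14728 genes then tested) and 6 were lower (11.8%, against 38.6%), and the median log2 fold change of the repair genes was 0.46. The median ratio of SD to mean for the 51 genes was 10.5% in MSC-derived cells and 36.5% in endogenous cells, so that the endogenous group carried most of the error.

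The calls divided into a stable and an unstable set. Palb2, Rad52, Rad54l, Fancc, Neil3, Parp1, Parp2, Xrcc1 and Chek2 were called in each of 19 other analyses at the same threshold. The other 14 calls were lost in at least 1 of them. Leaving out MSC-derived replicate 1, 2 or 3 lost 10, 12 and 9 calls, and leaving out endogenous replicate 2 or 3 lost 8 and 4. The calls of Bard1, Fanca, Fanci, Exo1, Xrcc6, Xpc and Ercc5 were lost without any 1 of the 3 MSC-derived libraries. Rad50 lost its call without MSC-derived replicate 1 or 2 and without endogenous replicate 2 or 3, Rad54b without the same libraries, Apex1 without MSC-derived replicate 2 or 3 and without endogenous replicate 2 or 3, Lig3 without MSC-derived replicate 2 or 3, Brip1 without MSC-derived replicate 1 and Ercc1 without MSC-derived replicate 2. Scaling also moved the split. On log2(TPM + 1), where the median of all genes shifted by -0.33, limma's fit called 12 repair genes higher and 7 lower. Of all genes tested it called 3124 higher and 5962 lower there. The counts were 26 and 3 on log2(FPKM + 1), beside 5464 and 3955 of all genes. They were 23 and 3 on log2(FPKM + 0.1), beside 5328 and 3940 of all genes. The calls of all genes thus moved with the scaling too.

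**Figure D1:**
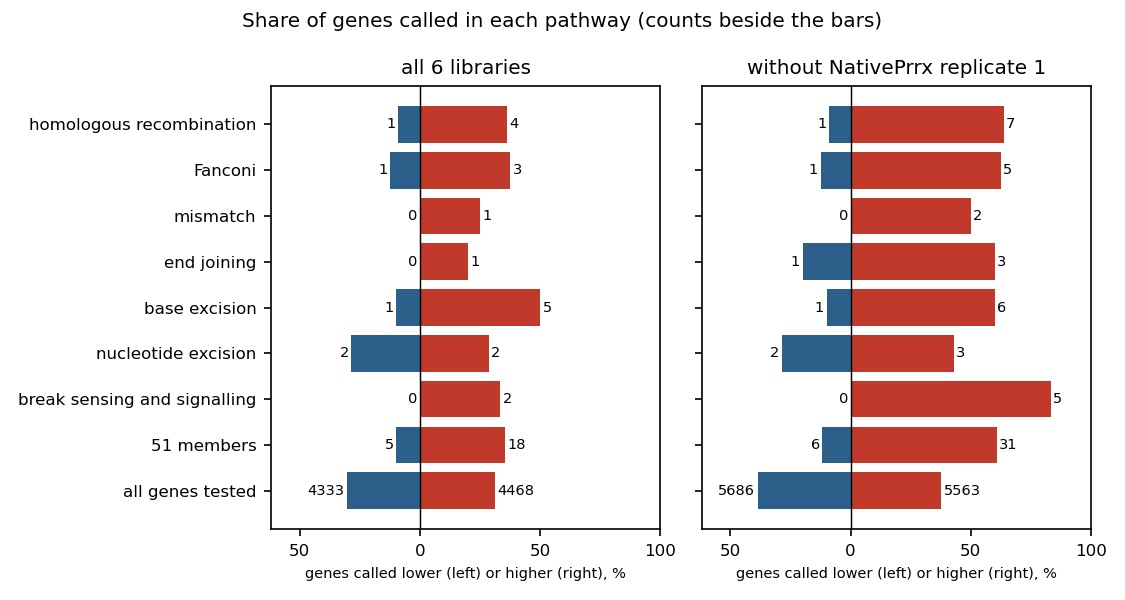
Share of repair genes called higher (red, right) or lower (blue, left) in MSC-derived than in endogenous cells, in percent of the genes tested in each pathway, with the number of genes beside each bar. The left panel uses all 6 libraries, where 18 of the 51 genes were higher and 5 lower, and the right panel leaves out endogenous replicate 1, where 31 were higher and 6 lower.

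With all 6 libraries, base excision repair had the largest number of calls of the 7 pathways. It removes single damaged bases and seals the resulting nick, and its late steps are shared with the repair of single-strand breaks. Of its 10 genes, 5 were higher (50%, against 31.3% of all genes tested), 1 was lower (10%, against 30.3%) and 4 were not called. The median log2 fold change was 1.06. Without endogenous replicate 1 there were 6 higher (60%, against 37.8% of all genes then tested) and 1 lower (10%, against 38.6%). In recombination there were then 7 higher and 1 lower, so that the ranking did not hold. The summed FPKM of the 10 genes was 131.7, 130 and 138 in the MSC-derived libraries and 56.63, 64.88 and 62.61 in the endogenous ones, and Xrcc1, Apex1 and Parp2 had the highest levels of all 51 genes in MSC-derived cells.

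The nick-sensing and scaffold genes moved together. Xrcc1 encodes the scaffold that holds the ligation complex at a nick. Its normalised CPM (CPM scaled further by edgeR's TMM method) was 79.6, 79.3 and 86.9 in MSC-derived cells and 26.5, 31.6 and 27.2 in endogenous cells. The groups lay far apart compared with their spread, and Xrcc1 rose by a log2 fold change of 1.53 (SE 0.11, adjusted p = 1.13e-05, edgeR). Per length it reached 37.7 ± 1.81 FPKM (SD, n = 3) against 12 ± 1.09 FPKM (SD, n = 3), the highest level among the repair genes in MSC-derived cells. Parp2, which encodes a poly(ADP-ribose) polymerase activated by nicks, had 45.8, 44 and 44.6 normalised CPM in MSC-derived cells and 14.2, 16 and 16.9 in endogenous cells. Its log2 fold change was 1.51 (SE 0.11, adjusted p = 1.76e-05, edgeR). Parp1, which encodes the most abundant enzyme of that family, had 36.4, 32.9 and 36.8 normalised CPM against 20.7, 16.7 and 12.6. It rose by 1.09 on the log2 scale (SE 0.19, adjusted p = 0.00175, edgeR). All 3 genes belong to the stable set.

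Lig3 moved the other way. It encodes the DNA ligase that XRCC1 carries to the nick. Its normalised CPM was 12.2, 11.1 and 10.4 in MSC-derived cells and 21.6, 16 and 15.1 in endogenous cells, with no overlap between the groups. Its log2 fold change was -0.64 (SE 0.19, adjusted p = 0.0185, edgeR), but the adjusted p reached 0.0756 when single libraries were left out, and limma on FPKM did not call it. Of its exon bases, 27.9% lie opposite Rffl in the GENCODE vM21 annotation of GRCm38.

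The DNA glycosylases, which cut out the damaged base, varied. Neil3 encodes a glycosylase for oxidised bases that is typical of dividing cells. It had 12.2, 12.7 and 16.1 normalised CPM in MSC-derived cells and 4.36, 3.14 and 3.77 in endogenous cells. It rose by 1.86 on the log2 scale (SE 0.22, adjusted p = 0.000242, edgeR). Ogg1, the glycosylase gene for 8-oxoguanine, had 14.9, 14.4 and 13 normalised CPM against 0.969, 7.96 and 9.37. Endogenous replicate 1 lay far below the other 5 libraries, and the log2 fold change of 1.21 was not called (SE 0.65, adjusted p = 0.146, edgeR), while without that library it was 0.65 (adjusted p = 0.000553). Neil1, another glycosylase gene for oxidised bases, had 5.75, 6.48 and 7 normalised CPM against 0.396, 4.24 and 4.73 and was called neither with all libraries (adjusted p = 0.248) nor without endogenous replicate 1 (adjusted p = 0.0548). Ung, for uracil, had 6.49, 6.77 and 4.37 against 3.83, 5.53 and 5.98 normalised CPM (log2 fold change 0.20, SE 0.3, adjusted p = 0.581, edgeR). Mutyh, for adenine opposite 8-oxoguanine, had 2.89, 1.6 and 2.84 against 0, 2.17 and 2.18 normalised CPM (log2 fold change 0.75, SE 1.09, adjusted p = 0.574, edgeR). The groups overlapped for Ung and Mutyh and did not for Neil3, Ogg1 and Neil1.

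Apex1 encodes the main endonuclease that cuts the backbone at the site left by a glycosylase. It had 32.1, 32.7 and 36.2 normalised CPM in MSC-derived cells and 26.9, 26.7 and 24.7 in endogenous cells, a small difference of 0.37 on the log2 scale (SE 0.11, adjusted p = 0.0206, edgeR). Its direction depended on the scaling, with a log2 difference of -0.07 in limma's fit of log2(TPM + 1). Moreover, 70.8% of its exon bases lie opposite Pip4p1 on the other strand, and the library kit named in the labels does not keep strand, so reads of the 2 genes cannot be told apart there.

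**Figure D2:**
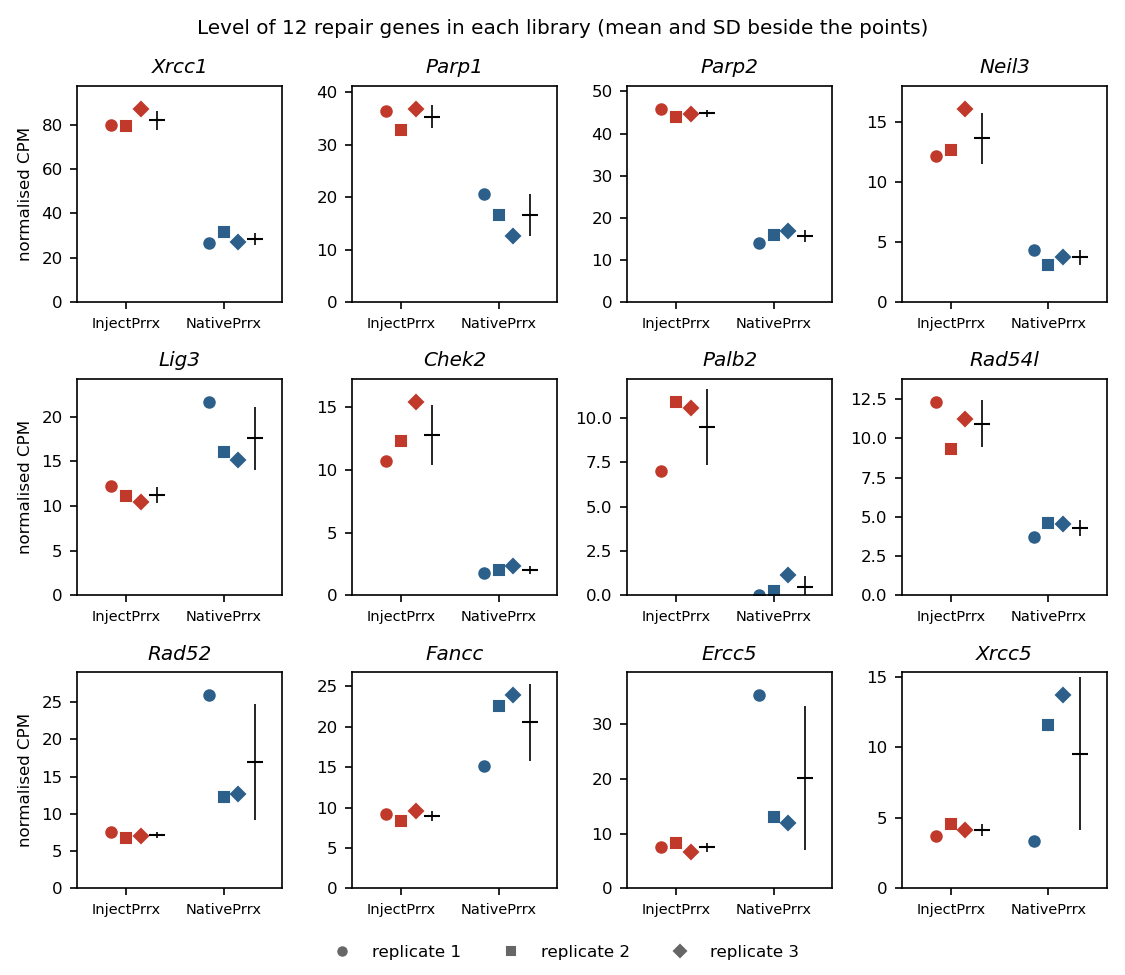
Normalised CPM of 12 repair genes in each library, with MSC-derived cells (InjectPrrx) in red and endogenous cells (NativePrrx) in blue, the replicate number as the symbol, and the mean ± SD of 3 libraries beside the points. Xrcc1, Parp1, Parp2, Neil3, Chek2, Palb2 and Rad54l lay higher in every MSC-derived library, Lig3, Rad52, Fancc and Ercc5 lay lower in every one, and the groups overlapped for Xrcc5, where endogenous replicate 1 had 3.39 normalised CPM.

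Homologous recombination repairs double-strand breaks by copying an intact sister. Of its 11 genes, 4 were higher (36.4%, against 31.3% of all genes tested), 1 was lower (9.09%, against 30.3%) and 6 were not called. Without endogenous replicate 1, 7 were higher (63.6%, against 37.8%) and 1 was lower (9.09%, against 38.6%). The median log2 fold change with all libraries was 0.72. The 19 recombination and Fanconi genes together had a median of 1.30, with 7 higher (36.8%) and 2 lower (10.5%). Their share of higher genes was thus near that of all genes.

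Palb2 had the largest fold change of the 51 genes. It encodes the bridge between BRCA1 and BRCA2. Its normalised CPM was 7, 10.9 and 10.6 in MSC-derived cells and 0.0441, 0.221 and 1.17 in endogenous cells, from 179, 266 and 243 counts against 1, 5 and 28. One endogenous library lay under the floor of 3 counts and the endogenous values were far apart, yet every MSC-derived library was above every endogenous one. The log2 fold change was 4.28 (SE 0.84, adjusted p = 0.00325, edgeR) and 3.68 without endogenous replicate 1 (adjusted p = 2.4e-08), but 6.11 without endogenous replicate 3.

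The genes of the BRCA1 complex were low in both groups. Bard1, the obligate partner of BRCA1 in its ubiquitin ligase, had 6.88, 8.45 and 6.69 normalised CPM in MSC-derived cells and 0.352, 2.7 and 2.55 in endogenous cells. It rose by 1.97 on the log2 scale (SE 0.64, adjusted p = 0.0296, edgeR), and its adjusted p reached 0.0942 when single libraries were left out. Brca1 had 4.77, 3.69 and 3.8 against 0, 2.12 and 2.3 normalised CPM, with no overlap, and its log2 fold change of 1.47 was not called (SE 1.05, adjusted p = 0.259, edgeR). Without the library at 0 it was 0.83 (adjusted p = 0.0111). Brca2, a tumour suppressor gene of the same pathway, had 9.03, 9.85 and 7.87 against 8.94, 4.95 and 5.57 normalised CPM. Its groups overlapped, and the log2 fold change was 0.46 (SE 0.27, adjusted p = 0.185, edgeR) with all libraries and 0.71 (adjusted p = 0.00203) without endogenous replicate 1.

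The genes that act during strand exchange and annealing did not share a direction. Rad54l encodes a motor protein that acts during strand invasion. It had 12.3, 9.31 and 11.2 normalised CPM in MSC-derived cells and 3.7, 4.64 and 4.52 in endogenous cells, a log2 fold change of 1.35 (SE 0.22, adjusted p = 0.00117, edgeR). Its relative Rad54b had 5.12, 3.77 and 2.19 against 1.89, 1.06 and 1.55 normalised CPM (log2 fold change 1.30, SE 0.46, adjusted p = 0.0404, edgeR). This call is uncertain, because 39.1% of the exon bases of Rad54b are shared with Fsbp on the same strand and the adjusted p reached 0.184 when single libraries were left out. Rad52, which encodes a protein that anneals single strands, was the 1 gene of these 11 that fell. It had 7.62, 6.77 and 7.08 normalised CPM in MSC-derived cells and 25.9, 12.3 and 12.6 in endogenous cells. The high value was that of endogenous replicate 1, and the log2 fold change was -1.24 with it (SE 0.31, adjusted p = 0.0106, edgeR) and -0.85 without it (adjusted p = 5.14e-05).

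No call was made for Rad51c, Xrcc2, Xrcc3 or Blm. The first 3 encode related proteins that assist strand exchange. Rad51c had 1.56, 2.95 and 1.84 normalised CPM in MSC-derived cells and 0.573, 1.06 and 2.22 in endogenous cells (log2 fold change 0.72, SE 0.59, adjusted p = 0.326, edgeR). Xrcc2 had 1.88, 4.35 and 4.29 against 4.93, 4.51 and 5.15 (log2 fold change -0.47, SE 0.38, adjusted p = 0.309, edgeR). Xrcc3 had 4.34, 2.91 and 4.63 against 4.23, 1.15 and 2.51 (log2 fold change 0.59, SE 0.5, adjusted p = 0.34, edgeR), with 1.05 and an adjusted p of 0.00932 without endogenous replicate 1. Levels of these 3 genes were low and the libraries of each group differed up to several fold. Blm, the helicase that dissolves recombination intermediates, had 10.4, 11.1 and 9.75 against 7.93, 8.31 and 8.96 normalised CPM. Its groups did not overlap, but the log2 fold change of 0.31 did not pass the test (SE 0.17, adjusted p = 0.15, edgeR).

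Several of these promoters hold the letters bound by E2F factors, the transcription factors of the G1 to S transition. Promoter sequence from RefSeq (GRCm38.p6, 250 bases before to 50 after the start) was matched for 42 of the 51 genes. The letters TTTCCCGC, TTTGGCGC, TTTCGCGC or TTTGCCGC, searched on both strands, were in 7 of the 42 promoters (16.7%), compared with 2.6% of all 27025 promoters and 4.41% of the 11314 promoters of genes tested. The 7 genes were Bard1, Brca2, Chek2, Msh3, Msh6, Rad51c and Xrcc6. Of these, 3 were called higher (Bard1, Chek2 and Xrcc6) and the others were not called. A letter match is a description of the sequence and no evidence of binding in these cells. The windows below were chosen to show how the match sits before the start of a gene that rose (Bard1, Chek2, Xrcc6) and of one that did not pass the test (Brca2, Msh3), and capitals mark the motif on the gene's strand.
Bard1, chr1:71103158-71103197, minus strand, match 209 bases before the start: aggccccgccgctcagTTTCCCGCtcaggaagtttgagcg
Chek2, chr5:110839815-110839854, plus strand, match 152 bases before the start: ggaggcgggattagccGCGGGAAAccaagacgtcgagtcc
Xrcc6, chr15:82016307-82016346, plus strand, match 46 bases before the start: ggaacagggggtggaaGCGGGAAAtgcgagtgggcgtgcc
Brca2, chr5:150522437-150522476, plus strand, match 168 bases before the start: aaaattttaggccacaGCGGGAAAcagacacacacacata
Msh3, chr13:92355182-92355221, minus strand, match 202 bases before the start: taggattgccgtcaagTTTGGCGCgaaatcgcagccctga

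The Msh3 window holds a second match in the reverse orientation, which begins 198 bases before the start, overlaps the first and is not capitalised. The promoter match thus stood before genes with a large fold change, such as Chek2, and before genes with none that passed the test, such as Msh3. The CCAAT box (letters CCAAT, both strands) was in 24 of the 42 promoters (57.1%, against 43% of the promoters of genes tested). The letters TTTGAA, the core of the cell cycle element CHR, were in 2 (4.76%, against 14.8%), in Bard1 and Ercc5.

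The Fanconi pathway unhooks crosslinks between the strands. A core complex that includes FANCA, FANCB, FANCC, FANCL and FANCM marks the pair FANCD2 and FANCI with ubiquitin, and BRIP1 is a helicase that acts with BRCA1. Of the 8 genes, 3 were higher (37.5%, against 31.3% of all genes tested), 1 was lower (12.5%, against 30.3%) and 4 were not called. The median log2 fold change was 1.55. Without endogenous replicate 1 there were 5 higher (62.5%, against 37.8%) and 1 lower (12.5%, against 38.6%).

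Subunits of the core complex did not move as 1 unit. Fanca had 8.56, 6.56 and 8.7 normalised CPM in MSC-derived cells and 0, 0.531 and 2.05 in endogenous cells. It rose by 3.19 on the log2 scale (SE 1.01, adjusted p = 0.0267, edgeR), with 2.55 without endogenous replicate 1 and 4.88 without endogenous replicate 3. Fancc fell, from 15.1, 22.6 and 23.9 normalised CPM in endogenous cells to 9.15, 8.29 and 9.53 in MSC-derived cells. Its log2 fold change was -1.19 (SE 0.21, adjusted p = 0.00179, edgeR). Fancl, the ubiquitin ligase subunit, had 10.6, 8.12 and 9.01 against 0, 4.55 and 3.35 normalised CPM. Its groups did not overlap and the log2 fold change of 1.81 was not called (SE 1.01, adjusted p = 0.16, edgeR), although it was without the library at 0 (1.18, adjusted p = 3.82e-05), and 17% of its exon bases lie opposite Vrk2. Fancb had 1.95, 1.64 and 2.4 against 0.0441, 1.55 and 1.76 normalised CPM (log2 fold change 0.84, SE 0.93, adjusted p = 0.461, edgeR). Fancm, which encodes the DNA translocase of the complex, had 4.69, 5.05 and 3.59 against 5.95, 5.08 and 3.98 (log2 fold change -0.17, SE 0.29, adjusted p = 0.628, edgeR). For these last 2 genes the groups overlapped.

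The pair that the core complex modifies was higher in each MSC-derived library. Fanci had 5.08, 5.5 and 5.68 normalised CPM in MSC-derived cells and 3.52, 0.973 and 1.84 in endogenous cells, and rose by 1.36 on the log2 scale (SE 0.47, adjusted p = 0.0394, edgeR), with 13.4% of its exon bases opposite Polg. Fancd2 had 5.16, 5.46 and 5.77 against 0, 1.33 and 2.05, a log2 fold change of 2.27 that was not called (SE 1, adjusted p = 0.085, edgeR) but was without endogenous replicate 1 (1.63, adjusted p = 2.41e-05). Brip1 had 8.52, 6.65 and 4.85 against 0.837, 2.52 and 2.64 normalised CPM. Its log2 fold change was 1.74 (SE 0.48, adjusted p = 0.0154, edgeR), and its groups did not overlap.

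**Figure D3:**
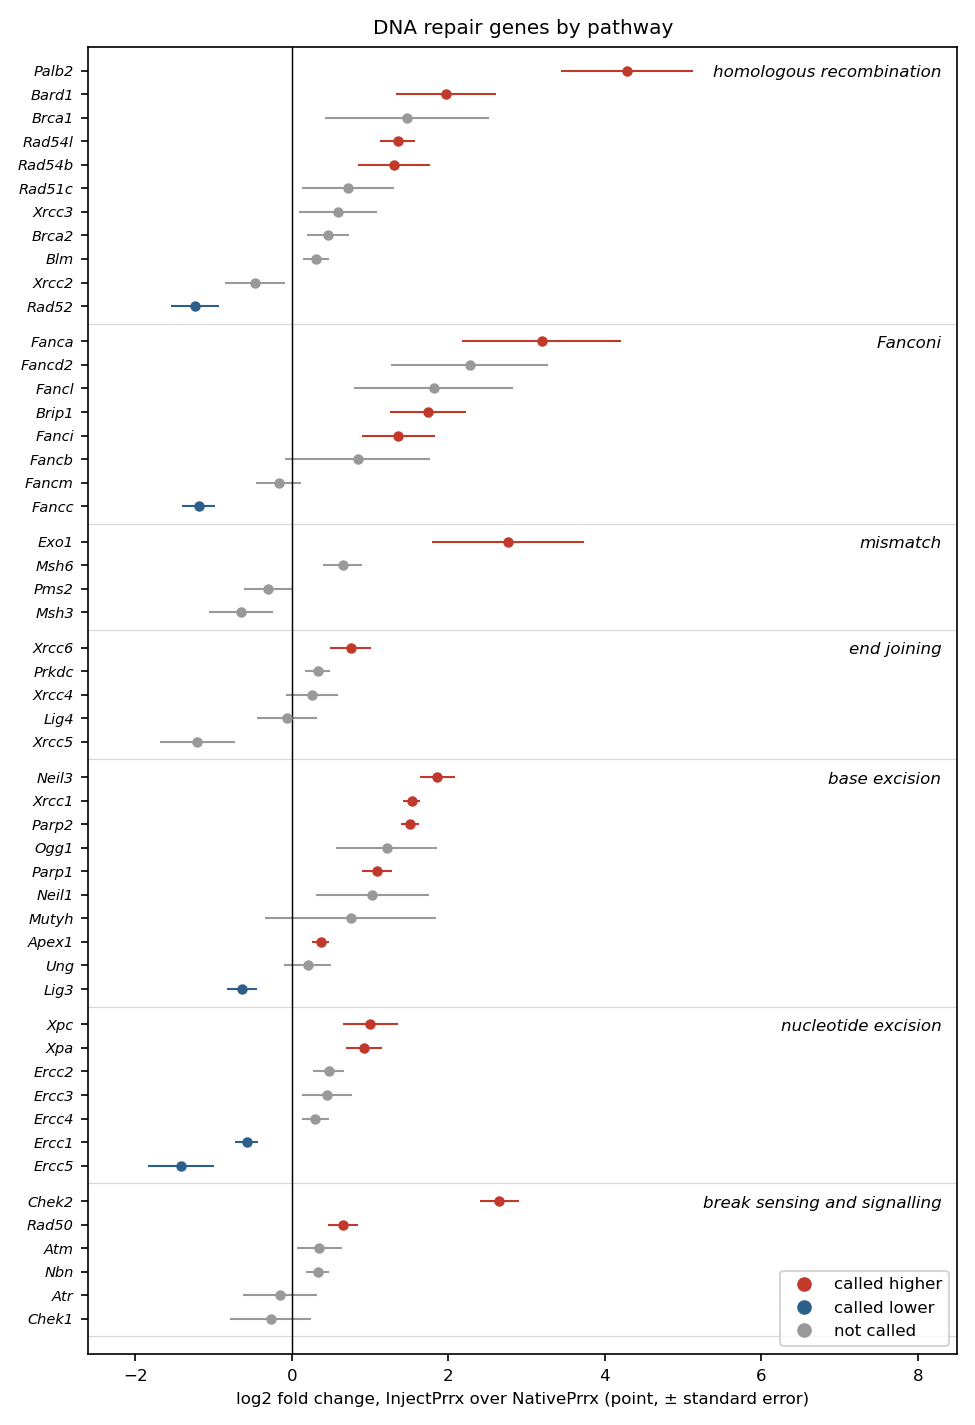
Log2 fold change of MSC-derived (InjectPrrx) over endogenous (NativePrrx) cells for the 51 repair genes by pathway, from edgeR's fit over all 6 libraries. Points are estimates and bars are ± 1 SE, with red for genes called higher, blue for lower and grey for not called. Values run from -1.42 (Ercc5) to 4.28 (Palb2), and the bars are widest for genes at 0 counts in endogenous replicate 1, such as Mutyh and Brca1.

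Mismatch repair corrects errors of the replication fork. Of its 4 genes 1 was called, as higher (25%, against 31.3% of all genes tested). Exo1, an exonuclease gene whose product removes the strand with the error and also resects breaks, had 4.34, 3.73 and 5.07 normalised CPM in MSC-derived cells and 0, 0.752 and 1.17 in endogenous cells. It rose by 2.76 on the log2 scale (SE 0.97, adjusted p = 0.0404, edgeR), with 2.12 without endogenous replicate 1 and 3.53 without endogenous replicate 3. MSH6 and MSH3 are alternative subunits of the complexes that recognise errors, the first for single mismatches and the second for larger loops. Msh6 had 18.6, 19.4 and 17.9 against 7.53, 13.8 and 14.4 normalised CPM, without overlap and just short of the threshold (log2 fold change 0.65, SE 0.25, adjusted p = 0.0562, edgeR). Msh3 had 6.26, 6.24 and 6.38 against 16.7, 5.62 and 7.24 (log2 fold change -0.65, SE 0.41, adjusted p = 0.202, edgeR), and its high endogenous value was again replicate 1, without which the log2 fold change was -0.09. Pms2, the endonuclease gene of the pathway, had 6.69, 7.01 and 9.93 against 13.7, 7.07 and 8.33 (log2 fold change -0.30, SE 0.31, adjusted p = 0.419, edgeR).

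End joining ligates break ends directly. The KU70 and KU80 proteins, encoded by Xrcc6 and Xrcc5, form the ring that first binds an end. Xrcc6 had 22.8, 21.6 and 20.1 normalised CPM in MSC-derived cells and 7.8, 15.2 and 15.4 in endogenous cells, and rose by 0.75 on the log2 scale (SE 0.26, adjusted p = 0.0387, edgeR). Xrcc5 had 3.75, 4.59 and 4.11 against 3.39, 11.6 and 13.7. Its groups overlapped only through endogenous replicate 1, and its log2 fold change was -1.21 with all libraries (SE 0.48, adjusted p = 0.0631, edgeR) and -1.66 without that library (adjusted p = 4.89e-08). The point estimates of the 2 subunits thus had opposite signs. Prkdc, the gene of the kinase that Ku recruits, had 14, 14.8 and 14.4 against 13.1, 9.9 and 11.6 normalised CPM (log2 fold change 0.33, SE 0.16, adjusted p = 0.121, edgeR). For the ligation step, Xrcc4, the scaffold, had 7.47, 9.48 and 8.48 against 10.8, 5.39 and 4.98 (log2 fold change 0.26, SE 0.33, adjusted p = 0.521, edgeR). Lig4, the ligase, had 3.36, 3.73 and 4.02 against 2.2, 5.04 and 4.35 (log2 fold change -0.06, SE 0.38, adjusted p = 0.898, edgeR), and its sign changed with the scaling. Of the 5 genes, 1 was higher (20%, against 31.3% of all genes tested) and 0 were lower with all libraries. With the same libraries 1 was lower at an unadjusted p below 0.05, and 1 by DESeq2. Without endogenous replicate 1 there were 3 higher (60%, against 37.8%) and 1 lower (20%, against 38.6%).

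Nucleotide excision repair cuts out a short strand around bulky damage such as that made by ultraviolet light. Of its 7 genes 2 were higher (28.6%, against 31.3% of all genes tested) and 2 lower (28.6%, against 30.3%). Both shares were thus near those of all genes. The median log2 fold change was 0.45. The 2 higher genes were Xpc and Xpa, of damage recognition and verification. Of 14 further genes of this pathway 2 were higher (14.3%) and 2 lower (14.3%). Ddb1 was 1 of the lower ones (log2 fold change -0.66, SE 0.08, adjusted p = 0.000318, edgeR). Xpc, which encodes the sensor of helix distortion, had 17, 15.1 and 17 normalised CPM in MSC-derived cells and 3.92, 10.1 and 10.6 in endogenous cells (log2 fold change 1, SE 0.35, adjusted p = 0.0412, edgeR). That call held in 11 of 19 alternatives. Xpa, which encodes the verification factor, had 8.91, 11.5 and 11.4 against 5.24, 4.64 and 6.91 normalised CPM. It rose by 0.92 on the log2 scale (SE 0.23, adjusted p = 0.0107, edgeR).

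Of the 7 genes, both that fell belong to the nucleases that make the cuts. Ercc5 encodes XPG, which cuts on the 3′ side. It had 7.47, 8.29 and 6.69 normalised CPM in MSC-derived cells and 35.2, 13 and 12 in endogenous cells, a log2 fold change of -1.42 (SE 0.42, adjusted p = 0.0212, edgeR), or -0.80 without endogenous replicate 1 (adjusted p = 0.000137). Ercc1, the partner of the XPF nuclease on the 5′ side, had 16.3, 14.4 and 16.7 against 19.7, 25.6 and 25.6. Its log2 fold change was -0.58 (SE 0.15, adjusted p = 0.0133, edgeR), and it had the highest level of the 51 genes in endogenous cells, at 25.1 ± 3.48 FPKM (SD, n = 3) against 18.2 ± 1.39 FPKM (SD, n = 3) in MSC-derived cells. Ercc4, which encodes XPF itself, had 14.7, 13.3 and 14.5 against 13.3, 11.4 and 9.71 normalised CPM (log2 fold change 0.30, SE 0.17, adjusted p = 0.164, edgeR).

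The helicases of the transcription factor TFIIH open the DNA around the damage. Ercc2 had 22.3, 19.3 and 19.6 normalised CPM in MSC-derived cells and 11.1, 18.1 and 14.9 in endogenous cells (log2 fold change 0.47, SE 0.2, adjusted p = 0.0744, edgeR), and 16.4% of its exon bases lie opposite Klc3. Ercc3 had 10.8, 9.39 and 9.36 against 4.23, 10.1 and 7.37 (log2 fold change 0.45, SE 0.32, adjusted p = 0.254, edgeR). Neither was called, with or without endogenous replicate 1.

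Break sensing and signalling starts at the MRE11, RAD50 and NBN complex, which activates the kinase ATM, while ATR responds to single-stranded DNA, and the 2 kinases act through CHEK2 and CHEK1. Of the 6 genes, 2 were higher (33.3%, against 31.3% of all genes tested) and 0 were lower. By DESeq2 or at an unadjusted p below 0.05, 0 were lower too. Their median log2 fold change was 0.34, and 5 were higher without endogenous replicate 1 (83.3%, against 37.8%). Chek2 was among the clearest differences of the 51 genes. It had 10.7, 12.3 and 15.4 normalised CPM in MSC-derived cells (SD 2.4) and 1.76, 1.99 and 2.34 in endogenous cells (SD 0.293). The groups did not overlap. The log2 fold change was 2.65 (SE 0.25, adjusted p = 6.1e-05, edgeR). Its counterpart Chek1 had 1.76, 2.54 and 2.54 against 4.85, 1.64 and 1.76 normalised CPM (log2 fold change -0.27, SE 0.52, adjusted p = 0.677, edgeR), and its groups overlapped.

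The upstream genes differed less. Rad50 had 25.1, 24.7 and 20.7 normalised CPM in MSC-derived cells and 18.7, 11.9 and 14.5 in endogenous cells, and rose by 0.65 on the log2 scale (SE 0.19, adjusted p = 0.0214, edgeR). Nbn had 18.1, 21.6 and 16.9 against 16.1, 14.5 and 14.3, which did not overlap and were not called (log2 fold change 0.33, SE 0.15, adjusted p = 0.0921, edgeR). Among the kinases, Atm had 6.1, 6.85 and 7.17 against 7.05, 3.8 and 4.98 normalised CPM (log2 fold change 0.35, SE 0.29, adjusted p = 0.324, edgeR). Atr had 5.47, 5.37 and 5.12 against 10.6, 2.96 and 4.1 (log2 fold change -0.15, SE 0.47, adjusted p = 0.803, edgeR). For Atm, Atr and Chek1 the highest value of the 3 endogenous libraries was that of replicate 1, and without it the log2 fold changes were 0.55 (adjusted p = 0.0244), 0.53 (adjusted p = 0.0487) and 0.37 (adjusted p = 0.351).

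Proteins of 1 complex, or that stand in for each other, can be compared as a ratio of levels within a library, which does not depend on the scaling between libraries. The ratios are given as values, since an exact permutation test of 3 against 3 libraries cannot go below 0.10. The FPKM ratio of Xrcc6 to Xrcc5 was 7.47, 5.79 and 6.02 in MSC-derived cells and 2.82, 1.55 and 1.36 in endogenous cells. The ratio of Lig3 to Xrcc1 was 0.0663, 0.0596 and 0.0477 against 0.317, 0.193 and 0.225, and thus lower in each MSC-derived library. The ratio of Ercc4 to Ercc1 was 0.125, 0.129 and 0.12 against 0.0941, 0.0616 and 0.0526. Within the mismatch pair, the ratio of Msh6 to Msh3 was 2.68, 2.92 and 2.57 against 0.405, 2.22 and 1.82. For these 4 pairs the groups did not overlap. The levels of many single genes did not overlap either, on normalised CPM (38.2% of all genes tested above and 34.1% below). No such share was computed for ratios of gene pairs, so the separation is not read as a result about the partners.

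The ratio of Nbn to Rad50 also separated the groups, though narrowly, at 1.45, 1.82 and 1.67 against 1.83, 2.52 and 2.09. Other partners overlapped. The ratio of Parp1 to Parp2 was 0.425, 0.394 and 0.428 against 0.717, 0.535 and 0.399, and that of Lig4 to Xrcc4 was 0.158, 0.138 and 0.166 against 0.0738, 0.331 and 0.311. Brca1 to Bard1 gave 0.743, 0.551 and 0.553 against 0, 0.735 and 0.872. Fancd2 to Fanci gave 0.884, 0.876 and 0.921 against 0, 1.23 and 0.907. For these last 4 pairs the ratios of the 2 groups overlapped.

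**Figure D4:**
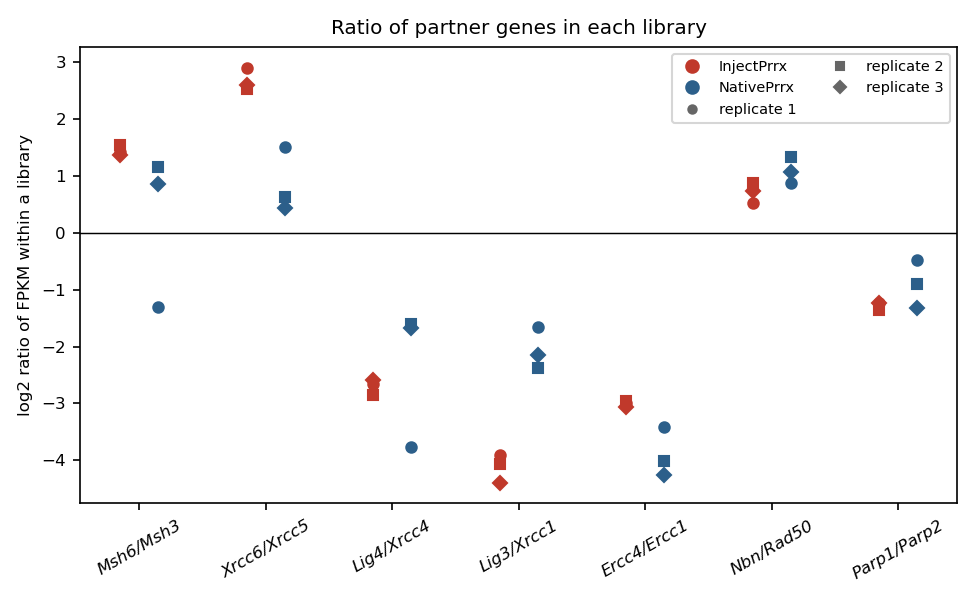
Log2 ratio of the FPKM of 7 pairs of partner genes in each library, with MSC-derived cells in red, endogenous cells in blue and the replicate number as the symbol. The Lig3 to Xrcc1 ratio was 0.0477 to 0.0663 in MSC-derived libraries and 0.193 to 0.317 in endogenous ones, and the 2 pairs with a ratio of 0 in endogenous replicate 1 (Brca1 to Bard1, Fancd2 to Fanci) cannot be drawn on a log axis.

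In level, the mean over the libraries of a group reached 1 FPKM for 42 of the 51 genes in MSC-derived cells and for 31 in endogenous cells, and it reached 10 FPKM for 7 and 3 genes. The summed FPKM of all 51 was 275.1, 275.3 and 283.2 in MSC-derived libraries and 168, 175.1 and 179.6 in endogenous ones. FPKM itself summed to 808701 to 813572 over all genes in the first group and to 504768 to 573603 in the second, so that sums of FPKM are not on 1 scale in the 2 groups.

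A further 95 genes of the same pathways were read from the same fit to place these values. Of them, 24 were higher (25.3%, against 31.3% of all genes tested) and 10 lower (10.5%, against 30.3%), and the median log2 fold change was 0.26. Without endogenous replicate 1 there were 41 higher (43.2%, against 37.8%) and 16 lower (16.8%, against 38.6%). In base excision repair, 4 of 14 genes were higher (28.6%) and 3 lower (21.4%), with a median log2 fold change of 0.14. Fen1, the flap endonuclease gene, rose by 1.95 (SE 0.3). Polb, the main repair polymerase gene, fell by 0.39 on the log2 scale, and Smug1, a uracil glycosylase gene, by 0.94. Of 10 Fanconi genes 2 were higher (20%) and 0 lower, with a median of 0.01. Of 4 mismatch genes 0 were called in either direction, by edgeR or by DESeq2, and the median was 0.28. Of 8 end joining genes 3 were higher (37.5%) and 1 lower (12.5%), with a median of 0.01. In recombination, 7 of 18 genes were higher (38.9%) and 1 lower (5.56%), with a median of 1.05. Dna2, a gene for end resection, rose by 2.69 (SE 0.58, adjusted p = 0.00485, edgeR) and Rad51ap1 by 1.73, and Sfr1 fell (-1.03, SE 0.07). In signalling, 6 of 18 genes were higher (33.3%) and 1 lower (5.56%), with a median of 0.28. Rad9a of the checkpoint clamp rose by 1.57 and H2ax, the histone variant marked at breaks, by 1.37, and Wee1 fell (-0.71, SE 0.23). Of 9 genes of bypass synthesis and direct reversal 0 were higher by edgeR, by DESeq2 or at an unadjusted p below 0.05. By edgeR's test 2 fell (22.2%, against 30.3% of all genes tested), the polymerase genes Polk (-1.13) and Rev3l (-0.93). Without endogenous replicate 1, 2 of the 9 were higher, the polymerase genes Poli (0.71, adjusted p = 0.00794, edgeR) and Rev1 (0.30, adjusted p = 0.0379), which were named after their values were seen.

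Of 26 proliferation genes 25 were higher (96.2%, against 31.3% of all genes tested) and 0 were lower (against 30.3%) by edgeR's test. By DESeq2 or at an unadjusted p below 0.05, 0 of the 26 were lower. Their median log2 fold change was 1.54, and their summed FPKM was 622.6 to 636.7 in MSC-derived libraries and 217.1 to 239.4 in endogenous ones. The part of cell division in the differences of the repair genes was not tested. None of the 26 was at 0 in any library.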

How the data were processed

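The authors deposited, for each gene and library, expected counts estimated by RSEM, FPKM and TPM, and a signal equal to the rounded-up count times 1 factor per library, which served only as a check. The submitters' processing notes name Bowtie2 2.2.5, RSEM 1.2.12 and the build mm9, so no coordinates come from the files. The methods also name SOAPnuke and HISAT2. Expected counts were rounded (20.6% of values changed) and tested with edgeR 4.0.16 (filterByExpr, TMM, quasi-likelihood, no block, Benjamini-Hochberg over 14289 genes, threshold 0.05) in R 4.3.3. The design was InjectPrrx against NativePrrx, with groups and replicate numbers from the sample titles. All 24 sample columns were mapped by name, and 8 columns of group averages were not used.

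Some genes are not reported here. Members and gene lists were chosen with earlier results of these data known. All members are named. Of the other lists, genes were named from the 3 per list and direction with the largest absolute log2 fold change among those called. Exon overlaps came from GENCODE vM21 (GRCm38) and promoters from RefSeq (GRCm38.p6). Figures used matplotlib 3.10.9.

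On simulated counts for this comparison (14289 genes, 200 changed) the test recovered 45% of 2-fold and 82% of 4-fold changes, with 5.22% false calls. Real 2-fold changes can thus go uncalled. The simulation gave both groups the same dispersion for a gene. In the data the biological coefficient of variation was 6.77% in MSC-derived and 35.3% in endogenous cells. The simulated rates therefore do not measure recovery or false calls under this unequal spread. Alternatives were DESeq2 1.42.0, limma 3.58.1 on log2(FPKM + 1), log2(FPKM + 0.1) and log2(TPM + 1), other scalings and filters, a robust fit, a replicate block, a stricter threshold, each library left out, and, chosen after seeing the data, counts rounded up. No molecular identifiers are mentioned, so depth limits cover counting error only.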

Additional observations from a re-analysis of the deposited data

How the results depend on the processing

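Of the 23 repair genes called, 9 (Palb2, Rad52, Rad54l, Fancc, Neil3, Parp1, Parp2, Xrcc1 and Chek2) kept their call and direction in all 19 alternatives at the same threshold, and 1 (Apex1) changed sign in one of them. The spread of the endogenous libraries (a median ratio of SD to mean of 36.5% for the repair genes) limits what the test can call. Counts that follow are of genes higher, then lower.

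With an adjusted p of 0.001, counts were 2134 and 2380 for all genes, 4 and 0 for the 51 repair genes, 10 and 2 for the other repair genes, 3 and 0 for base excision, 0 and 0 for recombination, Fanconi and nucleotide excision, 0 higher for mismatch repair and end joining, 1 higher for signalling and 5 higher for p53 targets. limma on log2(FPKM + 1) and on log2(FPKM + 0.1) both gave 3 lower repair genes, 37 and 6 other repair genes, 2 higher mismatch genes, 0 lower base excision genes and 1 lower nucleotide excision gene, and the first gave 5 higher Fanconi genes. limma on log2(TPM + 1) gave 22 lower other repair genes, 2 lower recombination genes, 0 and 1 for end joining, 0 higher nucleotide excision genes and 1 higher signalling gene. Library totals alone gave 5 lower other repair genes and 2 higher genes each in mismatch repair and end joining. RLE, upper quartile scaling and TMM without the top 50 genes each gave 0 higher end joining genes and 1 higher nucleotide excision gene, and DESeq2 gave 1 lower end joining gene. The cause of these changes was not tested. The median log2 fold change of all genes shifted from 0.05 by 0.12 with library totals, by 0.15 with log2(FPKM + 0.1) and by -0.33 with log2(TPM + 1).

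Signs changed for genes that were not called, except Apex1 (-0.07). With log2(TPM + 1) they were Blm (-0.09), Xrcc4 (-0.07), Prkdc (-0.09), Ung (-0.21), Ercc4 (-0.10), Atm (-0.04) and Nbn (-0.14). Lig4 gave 0.06 with library totals, 0.01 with the replicate block, 0.04 with log2(FPKM + 1) and 0.11 with log2(FPKM + 0.1), and Atr gave 0.07 with the block, then 0.06 and 0.19, and Chek1 gave 0.03 with log2(FPKM + 0.1).

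With each library left out in turn, higher repair genes ranged from 9 (without InjectPrrx replicate 1 or 2) to 31 (without NativePrrx replicate 1) and lower ones from 2 (without InjectPrrx replicate 2) to 6, and counts were 11 and 3 without InjectPrrx replicate 3 and 11 higher without NativePrrx replicate 2. For all genes the ranges were 3672 to 5563 higher and 3761 to 5686 lower. Higher counts ranged from 20 to 41 for other repair genes, 2 to 7 for recombination, 0 to 5 for Fanconi, 0 to 2 for mismatch, 0 to 3 for end joining, 1 to 3 for nucleotide excision and 1 to 5 for signalling. Lower counts ranged from 5 to 16 for other repair genes, 6 to 11 for p53 targets, 0 to 1 for end joining and base excision and 0 to 2 for nucleotide excision. Log2 fold changes ranged from -0.40 to 0.13 for Lig4, -0.02 to 0.38 for Ung, -0.48 to 0.53 for Atr and -0.55 to 0.37 for Chek1.

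Same-numbered libraries came from different mice and their deviations did not correlate (r = 0.01294, 0.002215 and 0.01785), so the numbers do not pair them. With the replicate block, 13 repair genes were higher and 5 lower, of 4103 and 3920 in all, with 0 higher genes in mismatch repair and in end joining.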

Other observations

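Targets of the transcription factor p53, which DNA damage activates, were called in both directions. Of 22 textbook targets 8 were higher (36.4%) and 7 lower (31.8%) in MSC-derived cells by edgeR's test, beside 31.3% and 30.3% of all genes tested, with a median log2 fold change of -0.16. Without NativePrrx replicate 1 there were 8 higher (36.4%, against 37.8% of all genes then tested) and 11 lower (50%, against 38.6%). Cdkn1a, which encodes the cell cycle inhibitor p21, had 169, 160 and 156 normalised CPM in MSC-derived cells and 586, 693 and 720 in endogenous cells, a log2 fold change of -2.04 (SE 0.09, adjusted p = 1.41e-06, edgeR). Gdf15, which encodes a secreted stress factor, had 460, 432 and 426 against 10.4, 16.6 and 15.7 normalised CPM, a log2 fold change of 4.95 (SE 0.18, adjusted p = 4.77e-07, edgeR). Plk3 (2.81) and Pmaip1 (1.94) also rose, and Tnfrsf10b (-1.88) and Phlda3 (-1.58) also fell. Macrophages too express Gdf15, and all 10 macrophage markers were higher in MSC-derived cells, with summed FPKM of 11260 to 11530 against 29.73 to 43.38. The part of these cells in its value was not tested.

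The transcript length that RSEM assigned to Rad54l differed between the groups. The length implied by its counts and FPKM was 2958, 2871 and 3017 bases in MSC-derived cells and 4663, 3277 and 3818 bases in endogenous cells. The log2 fold change of Rad54l was 1.35 on counts and 1.83 on mean FPKM, while that of Xrcc1, whose implied length was 2255 to 2275 bases in every library, was 1.53 and 1.65. Levels of Rad54l were low, and the implied lengths of other low genes varied between libraries too. Palb2, for example, had 3062, 3105 and 3269 bases against 4266, 2628 and 2813. Its counts were 1 and 5 and its FPKM 0.01 and 0.08 in endogenous replicates 1 and 2. Rounding of such FPKM values shifts the implied length, so these bases do not show that the assigned length varied. Which isoforms were used was not tested.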
